A study of Mus musculus with 14 samples.

Results

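The genes described here desaturate or elongate long-chain fatty acids: the desaturase genes Scd1, Scd2, Fads1, Fads2 and Fads3 and the elongase genes Elovl1, Elovl2, Elovl5 and Elovl7. They were taken by symbol from the annotation of the array's probe sets, and 8 of the 9 genes had a named probe set, 1 each, among 22206 probe sets tested. Scd2 had none and is not analysed here. RNA came from adult male wild-type C57Bl6 mice kept for 2 weeks on CSAA, the control diet, or on CDAA, in common usage a choline-deficient, amino-acid-defined diet, here supplemented with cholesterol, glucose and fructose. Each diet has 3 arrays of primary hepatocytes, freed from the liver with collagenase, and 4 of total liver, the caudal lobe of mice perfused with saline. The arrays (Clariom S, mouse) came from independent preparations, and whether animals were pooled is not given in the sources used here. If the preparations shared animals, the p-values below measure only the spread between preparations.

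Desaturases place double bonds in fatty acyl chains, and elongases add carbon units to them in the endoplasmic reticulum. Scd1 turns stearate and palmitate into the monounsaturated fatty acids of stored fat. Fads2 and Fads1 act in turn on the dietary essential fatty acids, with Elovl5 and Elovl2 lengthening the chain between and after them, and so make arachidonic acid and docosahexaenoic acid for liver phospholipids. In hepatocytes several of these genes are known targets of SREBP-1c and LXR, are induced by insulin and are held down by dietary polyunsaturated fat.

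The values are log2 intensities, on which a difference of 1 is a doubling of signal. The tissues lie on different scales: the median over the tested probe sets was 4.68 to 4.89 in the hepatocyte arrays and 5.85 to 6.06 in the total liver arrays, so no level was compared between tissues. Background was read from probe sets that target introns, and the level that 95% of these controls lie under, called the intron control percentile below, was 6.84 to 8.01 in the hepatocyte arrays and 9.96 to 10.23 in the total liver arrays. Scd1, Fads1, Fads2, Elovl1, Elovl2 and Elovl5 lay above it on all 14 arrays, and Fads3 and Elovl7 under it on all 14. All 9 measured hepatocyte markers lay above it in every group. The hepatocyte arrays on CDAA also carried markers of other liver cells: 8 of 8 Kupffer cell, 8 of 8 recruited macrophage, 8 of 8 stellate cell, 7 of 8 sinusoidal endothelial, 4 of 6 neutrophil, 1 of 7 T and B cell and 0 of 6 cholangiocyte markers rose, and 2 of 9 hepatocyte markers fell. In total liver 5 of 8 Kupffer cell, 8 of 8 recruited macrophage, 4 of 8 stellate cell, 1 of 8 sinusoidal endothelial and 4 of 6 neutrophil markers rose, 1 of 7 T and B cell markers fell, and no cholangiocyte or hepatocyte marker passed. By the same test (limma, adjusted p under 0.05) 11% of all probe sets rose and 7.74% fell in hepatocytes. In total liver 6.73% of all probe sets rose and 3.54% fell. In hepatocytes all 8 Kupffer cell markers lay wholly under the percentile on CSAA and none did on CDAA, and the mean level of these markers there was between 5.42 and 5.76 in CSAA preparations and between 11.38 and 12.88 in CDAA preparations. The mean of the 9 hepatocyte markers on the hepatocyte arrays was between 17.72 and 17.89 with CSAA and between 16.95 and 17.41 with CDAA. Every hepatocyte comparison below was made on preparations that differ in this way. The total liver arrays of the 2 diets also differ in the markers given above. What part either played in a result was not tested.

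**Figure D1:**
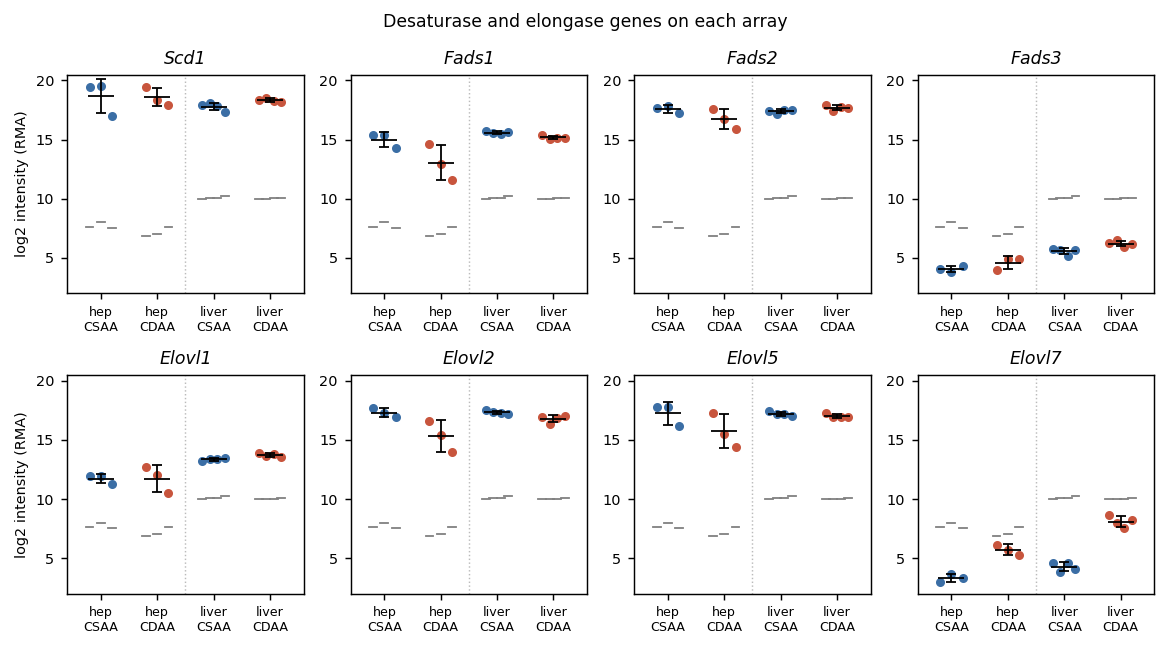
Log2 intensity of each of the 8 measured genes on each array (points), by tissue (hep, primary hepatocytes, 3 arrays per diet; liver, total liver, 4 arrays per diet) and diet, with group mean and SD in black; short grey lines mark each array's background, the level that 95% of its intron controls lie under. Elovl7 was higher on every CDAA array in both tissues but stayed under the grey lines, and Elovl2 was lower on every CDAA array in both tissues, with the hepatocyte arrays of a group lying far apart.

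The first comparison asked how the diet changed these genes in total liver. On CDAA the elongase gene Elovl7 rose, and it was the only one of the 8 genes past the threshold of an adjusted p of 0.05 (limma, 14 arrays in the fit). The other 7 differed by 0.62 or less on the log2 scale in either direction. In 6 of the 8 genes the arrays of the 2 diets did not overlap, 4 higher and 2 lower on CDAA. Over all tested probe sets 10.3% passed the threshold, 6.73% higher and 3.54% lower, so 1 call in 8 genes is near the background share. Diets did not overlap in 25.1% of all probe sets, 13.1% higher and 12.0% lower on CDAA. The median difference of the 8 genes was 0.33, against -0.09 over all tested probe sets.

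Elovl7, which elongates long saturated fatty acids, was measured by probe set TC1300001204.mm.2. In total liver it read 4.58, 3.80, 4.59 and 4.12 on CSAA and 8.65, 7.99, 7.57 and 8.20 on CDAA. Every CDAA array lay above every CSAA array, by far more than the spread within a diet (4.27 ± 0.38 and 8.10 ± 0.45, mean ± SD, n = 4). The fitted difference was 3.83 ± 0.27 (SE), with limma's adjusted p = 4.53e-07. Because both diets lay under the intron control percentile, this is not read as a fold change of RNA. Put against the intron controls of the same array, Elovl7 was brighter than 11.9% to 22.9% of them on CSAA and than 76.1% to 88.5% on CDAA.

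In hepatocytes Elovl7 read 3.03, 3.66 and 3.32 on CSAA and 6.16, 5.72 and 5.24 on CDAA. The groups again did not overlap, and the fitted difference was 2.36 ± 0.31 (limma, adjusted p = 4.68e-05). It was brighter than 20.6% to 35.9% of the intron controls on CSAA and than 76.8% to 91.7% on CDAA. Elovl7 passed in both tissues under every one of 24 alternative settings tried, with differences of 3.42 to 4.02 in total liver and 2.14 to 3.05 in hepatocytes. Not all 24 could move a result. Each gene had 1 probe set, so averaging a gene's probe sets repeated the main fit. Leaving out an array of the other tissue left the difference as it was and changed only the shared spread. In both tissues recruited macrophage markers were higher on CDAA, by 4.70 to 5.65 in the mean of the list on the total liver arrays and by 5.92 to 7.73 on the hepatocyte arrays. Within the total liver CDAA arrays both stood highest on replicate 1, Elovl7 at 4.38 and the macrophage markers at 5.65 above their CSAA means. So did the stellate cell (2.26), neutrophil (2.47) and cholangiocyte markers. Kupffer cell markers were instead highest on replicate 2, and T and B cell markers on replicate 4. Sinusoidal endothelial and hepatocyte markers were lowest on replicate 1. Within the hepatocyte CDAA arrays Elovl7 was highest on replicate 1, where the mean of the macrophage markers was lowest. The part of other cells in the rise of Elovl7 was not tested. In a bulk sample more cells of a type and more RNA per cell cannot be told apart.

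The genes whose values ran closest to those of Elovl7 over the 14 arrays, after each tissue's mean was subtracted, were Haus8 (r = 0.985), Cidec (r = 0.985) and Abcc4 (r = 0.977). Haus8 encodes a subunit of the augmin complex of the spindle, Cidec a protein that fuses lipid droplets, and Abcc4 an organic anion exporter. These are the best of all named probe sets, and the points share diet, so the coefficients only describe. Their differences in total liver were 3.88 ± 0.26 for Haus8, 5.18 ± 0.34 for Cidec and 4.32 ± 0.34 for Abcc4. In hepatocytes they were 2.51 ± 0.30, 3.49 ± 0.39 and 1.90 ± 0.40, all 6 past the threshold by limma. On CSAA all 3 genes lay under the intron control percentile on every array of both tissues, so these differences are of signal and not folds of RNA. On CDAA all 3 lay above it on 4 of 4 total liver arrays, and in hepatocytes Cidec did on 3 of 3, Haus8 on 2 and Abcc4 on 1.

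Promoters are shown for the 2 genes at the ends of the range of hepatocyte differences, Elovl7 and Elovl2, and for Elovl5, which works beside Elovl2. They are the 250 bases before the annotated start, 5′ to 3′, from RefSeq on GRCm38.p6 (6 of the 9 genes had an entry, with 8 entries in all). Elovl7 lies at chr13:108214154-108214403, plus strand, Elovl2 at chr13:41220404-41220653, minus strand, and Elovl5 at chr9:77917115-77917364, plus strand. Capitals mark matches on either strand to the motifs searched: the NF-Y box CCAAT, the GC box GGGCGG, the E-box CACGTG, the cAMP response element TGACGTCA, and direct repeats of AGGTCA with 4 bases between them (as LXR binds) or 1 base (as PPAR binds), which share their half-site.
Elovl7: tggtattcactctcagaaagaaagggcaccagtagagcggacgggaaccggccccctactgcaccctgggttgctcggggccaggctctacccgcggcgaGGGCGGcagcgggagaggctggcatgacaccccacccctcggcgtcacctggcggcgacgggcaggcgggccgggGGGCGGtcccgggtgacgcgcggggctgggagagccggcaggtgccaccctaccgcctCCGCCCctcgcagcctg
Elovl2: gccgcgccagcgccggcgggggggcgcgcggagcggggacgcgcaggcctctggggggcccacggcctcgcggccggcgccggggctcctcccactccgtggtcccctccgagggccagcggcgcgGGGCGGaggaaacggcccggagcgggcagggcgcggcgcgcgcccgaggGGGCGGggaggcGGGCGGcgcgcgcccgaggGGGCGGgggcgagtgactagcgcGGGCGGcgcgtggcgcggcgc
Elovl5: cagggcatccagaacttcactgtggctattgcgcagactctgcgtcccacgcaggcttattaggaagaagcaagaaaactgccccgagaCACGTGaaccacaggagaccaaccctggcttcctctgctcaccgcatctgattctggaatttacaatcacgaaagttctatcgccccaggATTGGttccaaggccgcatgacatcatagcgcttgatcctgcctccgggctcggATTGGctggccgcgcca
The window of Elovl7 held 3 GC boxes and that of Elovl2 held 5, and neither had another motif of the search; a second entry of Elovl2, not shown, held none. The window of Elovl5 held 2 NF-Y boxes and 1 E-box and no GC box. Of 32851 promoter windows of the same length, 32.7% held a GC box, 33.8% an NF-Y box and 6.02% an E-box. The repeat with 4 bases between stood in 0.0152% of windows, that with 1 base in 0.0335% and the cAMP response element in 1.55%, and in none of the 8 entries of these genes. The window of Elovl2 was 87.2% G or C, that of Elovl7 73.6% and that of Elovl5 55.6%, against a median of 52.4% over all windows. A match is a description of the letters and not a binding site.

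Of the desaturase genes in total liver, Scd1 (TC1900001562.mm.2) read 17.94, 18.05, 17.82 and 17.37 on CSAA and 18.34, 18.54, 18.28 and 18.18 on CDAA. Every CDAA array was higher, by 0.54 ± 0.45 in the fit (1.45-fold, 95% interval 0.748 to 2.82, adjusted p = 0.51). Fads2 (TC1900001095.mm.2), the first desaturase of the polyunsaturated chain, read 17.46, 17.17, 17.52 and 17.53 on CSAA and 17.95, 17.40, 17.71 and 17.69 on CDAA. The diets overlapped, and the difference was 0.27 ± 0.28 (95% interval -0.33 to 0.88). Fads1 (TC1900000188.mm.2), which takes the later desaturation step, read 15.73, 15.52, 15.48 and 15.61 on CSAA and 15.37, 15.05, 15.18 and 15.17 on CDAA. All 4 CDAA arrays lay below all CSAA arrays, with a difference of -0.39 ± 0.45 (95% interval -1.35 to 0.57, adjusted p = 0.647). Fads3 (TC1900000186.mm.2), a neighbour of both in the Fads gene cluster, read 5.75, 5.69, 5.19 and 5.69 on CSAA and 6.25, 6.48, 5.94 and 6.14 on CDAA. Its groups did not overlap either, at a difference of 0.62 ± 0.24 (adjusted p = 0.114), but on both diets it lay among the intron controls, brighter than 32.1% to 44.0% of them on CSAA and 46.5% to 57.6% on CDAA.

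Of the elongase genes in total liver, Elovl5 (TC0900001042.mm.2), which lengthens the products of Fads2, read 17.41, 17.18, 17.18 and 16.99 on CSAA and 17.29, 16.95, 16.96 and 16.96 on CDAA. The diets overlapped, at a difference of -0.15 ± 0.47 (95% interval -1.15 to 0.85). Elovl2 (TC1300001859.mm.2), which lengthens the chain further towards docosahexaenoic acid, was 17.23 to 17.50 on CSAA and read 16.96, 16.37, 16.83 and 17.02 on CDAA. All 4 CDAA arrays lay below all CSAA arrays, by -0.53 ± 0.39 in the fit (95% interval -1.37 to 0.30, adjusted p = 0.446). Elovl1 (TC0400001307.mm.2), an elongase of very-long-chain saturated fatty acids for sphingolipids, read 13.17, 13.38, 13.35 and 13.47 on CSAA and 13.90, 13.63, 13.81 and 13.60 on CDAA. All 4 CDAA arrays were higher, by 0.39 ± 0.34 (95% interval -0.33 to 1.11, adjusted p = 0.532). Beside the lower values of Fads1 and Elovl2, the 9 hepatocyte markers of the same arrays had a median difference of -0.27, with none past the threshold by limma, and what part that plays was not tested.

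These total liver tests borrow the spread of the hepatocyte arrays, which is wider: the root mean square deviation of an array from its group mean was 0.363 to 0.594 in hepatocytes, against 0.229 to 0.320 in total liver. With the 8 total liver arrays alone in the fit, 4 of the 8 genes passed, against 20.8% of all probe sets: Elovl7, Scd1 (0.54 ± 0.17, adjusted p = 0.0472) and Fads3 (0.62 ± 0.17, adjusted p = 0.0266) higher, and Elovl2 (-0.53 ± 0.17, adjusted p = 0.0449) lower. Elovl1 (adjusted p = 0.0726) and Fads1 (adjusted p = 0.0658) did not pass that fit. Without hepatocyte CDAA replicate 1 the shared spread narrowed, and 2 of the 8 passed in total liver, Elovl7 and Fads3, against 14%.

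**Figure D2:**
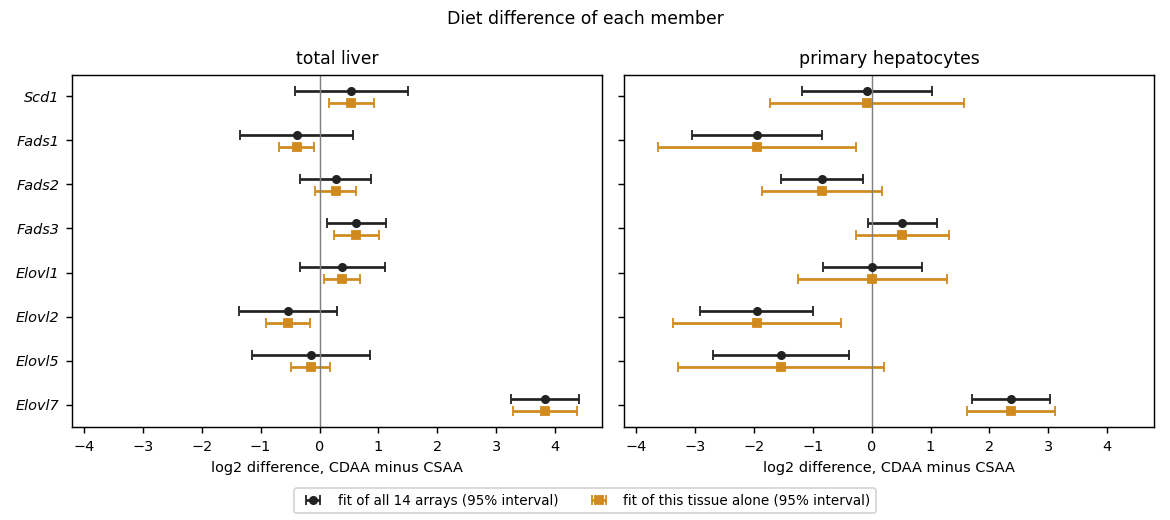
Difference in log2 intensity, CDAA minus CSAA, of each measured gene in total liver (left) and primary hepatocytes (right), with 95% intervals: circles from the fit of all 14 arrays, squares from a fit of the 2 diets of that tissue alone. The interval of Elovl7 lies to the right of 0 in both panels and both fits; the fit of the tissue alone narrows the intervals in total liver and widens them in hepatocytes.

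The second comparison asked the same of primary hepatocytes. On CDAA, Elovl2 and Fads1 fell and Elovl7 rose, so that 3 of 8 genes passed the threshold, 1 higher and 2 lower, against 18.7% of all probe sets, 11% higher and 7.74% lower. Fads2 and Elovl5 had lower means on CDAA without passing, and Scd1 and Elovl1 had differences near 0. The median difference of the 8 genes was -0.46, against -0.13 over all tested probe sets. The diets did not overlap for Elovl7, above, and Elovl2, below, which makes 2 of 8 genes against 26.6% of all probe sets, 12.4% above and 14.2% below.

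Elovl2 in hepatocytes read 17.66, 17.29 and 16.90 on CSAA and 16.60, 15.42 and 13.97 on CDAA. Its CDAA arrays span more than 2 log2 units and all lie below the CSAA arrays. The difference was -1.95 ± 0.45 (0.259-fold, 95% interval 0.133 to 0.504, adjusted p = 0.00599). Fads1 read 15.41, 15.36 and 14.26 on CSAA and 14.64, 12.92 and 11.61 on CDAA. Here CDAA replicate 1 lay above CSAA replicate 3, so the diets overlapped, and the difference was -1.95 ± 0.52 (0.259-fold, 95% interval 0.121 to 0.557, adjusted p = 0.0147). Neither held with the hepatocyte arrays alone in the fit (adjusted p = 0.11 for Elovl2 and 0.174 for Fads1), where Elovl7 alone of the 8 passed, against 8.48% of all probe sets. Elovl2 passed under 23 of the 24 alternatives, with differences of -2.58 to -1.26, though several of the 24 could not move its difference, as said for Elovl7. Fads1 also lost its call when any of CSAA replicate 1, CSAA replicate 2, CDAA replicate 2 or CDAA replicate 3 was left out, with differences of -1.75, -1.77, -1.88 and -1.23 and adjusted p = 0.0519 to 0.0607.

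Elovl5 in hepatocytes read 17.77, 17.81 and 16.15 on CSAA and 17.25, 15.48 and 14.40 on CDAA. The diets overlapped, and the difference was -1.54 ± 0.54 (95% interval -2.69 to -0.38, adjusted p = 0.0614). Fads2 read 17.71, 17.85 and 17.23 on CSAA and 17.61, 16.72 and 15.93 on CDAA, a difference of -0.84 ± 0.33 (95% interval -1.54 to -0.14, adjusted p = 0.0897). Both have CDAA replicate 1 within the CSAA range and replicate 3 lowest. Scd1 read 19.42, 19.56 and 17.03 on CSAA and 19.44, 18.38 and 17.95 on CDAA, a difference of -0.08 ± 0.52 (95% interval -1.19 to 1.03). On CSAA replicates 1 and 2 and CDAA replicate 1 it lay close to Alb (19.86, 19.79 and 19.91), near the top of the scale. A rise of Scd1 may therefore be understated, and its difference near 0 does not show that none occurred. Elovl1 read 11.92, 11.97 and 11.27 on CSAA and 12.69, 12.00 and 10.51 on CDAA, a difference of 0.01 ± 0.39 (95% interval -0.82 to 0.85). The intervals reach up to 2.04-fold for Scd1 and 1.80-fold for Elovl1, and the sign of both turned under some scalings, among them joint quantile normalization (0.032 for Scd1 and -0.098 for Elovl1). Fads3 read 4.06, 3.81 and 4.34 on CSAA and 3.96, 4.90 and 4.93 on CDAA, under the intron control percentile throughout, a difference of 0.52 ± 0.27 (adjusted p = 0.207).

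The hepatocyte preparations of a diet differed from each other, and most of the 8 genes differed together. Among the CDAA arrays Scd1, Fads1, Fads2, Elovl1, Elovl2, Elovl5 and Elovl7 were all highest on replicate 1 and lowest on replicate 3. That order was not particular to these genes. Hnf4a (13.29, 11.32 and 10.65 on replicates 1 to 3), Acox2 (14.47, 12.03 and 9.96) and Scap (10.89, 8.39 and 6.96) had it too. Tdo2 (16.04, 16.81 and 17.08) and Asgr1 (14.39, 15.05 and 15.37) ran the opposite way. How many of all probe sets share the order was not counted. Among the CSAA arrays Scd1, Fads1, Fads2, Elovl1, Elovl2 and Elovl5 were lowest on replicate 3. After group means were subtracted, the 10 pairs among Fads1, Fads2, Elovl1, Elovl2 and Elovl5 correlated at 0.918 to 0.994 over the 6 hepatocyte arrays and at -0.06 to 0.73 over the 8 total liver arrays. Fads3, at values under the intron control percentile, went the other way: it was highest on replicate 3 of both diets and correlated at -0.92 to -0.76 with the other 7 genes over the hepatocyte arrays, against -0.43 to 0.23 over the total liver arrays. The set of 5 genes was put together after their values were seen, and points of 1 array share its preparation and normalization. Of the CDAA arrays replicate 1 had the lowest mean of the Kupffer cell markers and of the recruited macrophage markers, with Kupffer cell markers above the CSAA mean by 5.83 on replicate 1, 7.33 on replicate 2 and 7.02 on replicate 3. The hepatocyte markers stood at -0.42, -0.77 and -0.88 on the same arrays, and Elovl2 at -0.69, -1.86 and -3.31. Stellate cell, neutrophil and T and B cell markers were also lowest on replicate 1. Sinusoidal endothelial markers were lowest on replicate 3 (4.26, 4.39 and 3.19), as were cholangiocyte markers. Csf1r and Marco of the Kupffer cell list and Itgax of the recruited macrophage list were lowest on replicate 3, the other measured genes of both lists on replicate 1. The part of the cell mixture in these shifts was not tested. With each array centred on its 9 hepatocyte markers, an added scaling, the difference was -1.26 ± 0.40 for Elovl2 (adjusted p = 0.0206) and -1.26 ± 0.46 for Fads1 (adjusted p = 0.042), both still past the threshold, while the median over all probe sets moved to 0.56. Elovl5 had -0.85 and Fads2 -0.15 on that scaling, Scd1 turned to 0.61, and none of these 3 passed. It left 4 of 8 genes past the threshold in hepatocytes, Fads3 (1.21) and Elovl7 (3.05) among them, against 37.7% of all probe sets, 1 in total liver against 11.3%, and none for the difference between tissues against 5.81%. Of the 9 markers, Alb was the brightest probe set on 5 of the 6 hepatocyte arrays and Apoa1, with the same value, on 3. So near the top of the scale, a change of these markers in either direction may be understated. All 9 had lower means on CDAA in hepatocytes, but by unequal amounts. Alb differed by -0.005, Ttr by -0.12 and Apoa1 by -0.13, against -1.35 for Cps1 and -1.72 for Hnf4a. The centring carries that limit, and whether it takes out a change in hepatocyte content was not tested.

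**Figure D3:**
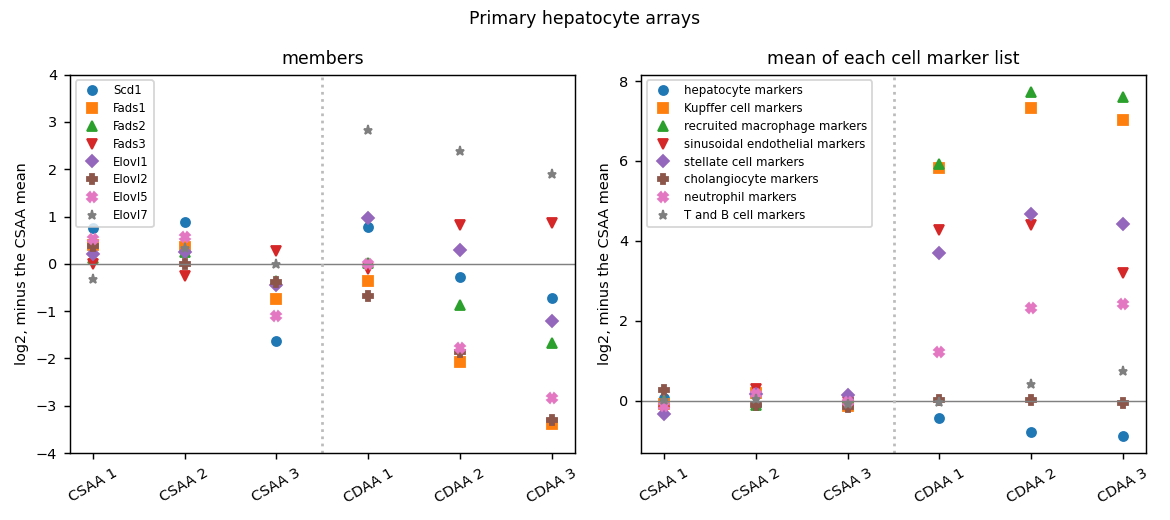
Primary hepatocyte arrays only: shift of each array from the CSAA mean (log2) for the 8 measured genes (left) and for the mean of each list of cell type markers (right). On CDAA the means of the Kupffer and recruited macrophage markers stand 5.83 to 7.73 above the CSAA mean, lowest on replicate 1. Fads1, Elovl2 and Elovl5 are least shifted on that array. The sinusoidal endothelial markers are instead lowest on replicate 3, at 3.19, against 4.26 on replicate 1.

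Hepatocyte CDAA replicate 1 had the lowest mean of the Kupffer cell markers in its group and the largest deviation from its group mean. Leaving it out moved the hepatocyte count from 3 to 6 of 8 genes, against 26.2% of all probe sets. Fads1, Fads2, Elovl2 and Elovl5 were then lower, at -2.74, -1.27, -2.58 and -2.31, and Fads3 and Elovl7 higher. With arrays weighted by their spread, 6 of the 8 passed in hepatocytes against 30.6% of all probe sets, 2 in total liver against 22.5% and 5 for the difference between tissues against 12.3%. After centring on array medians, which moved the hepatocyte median of all probe sets to -0.29, 5 of the 8 passed in hepatocytes against 24.3%, 1 in total liver against 13.1% and none for the difference between tissues against 2.49%.

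The difference between the tissues was tested as the diet difference in total liver minus that in hepatocytes. The tissues lie on different scales, as said above, and were extracted with different RNA kits. A log2 difference may therefore not mean the same in both, and the sizes below carry that limit. None of the 8 genes passed by limma, against 2.57% of all probe sets (0.212% higher and 2.36% lower). Of the 8 genes, 4 had an unadjusted p under 0.05 by limma, and so had 2616 of the 22206 probe sets. The estimate was largest for Fads1, at 1.56 ± 0.69 (adjusted p = 0.377), followed, among the genes above the intron control percentile, by Elovl2 at 1.42 ± 0.60 (adjusted p = 0.344), Elovl5 at 1.39 ± 0.72 (adjusted p = 0.48) and Fads2 at 1.11 ± 0.43 (adjusted p = 0.291). Elovl7 had 1.46 ± 0.42 (adjusted p = 0.0933), a size that is not read, since it lay under that percentile on all 14 arrays and the percentile itself differs between the tissues. All 8 estimates were above 0 in this fit, that is, less lowered or more raised in total liver, though those of Fads3 and Elovl1 turned below 0 under other scalings (-0.40 and -0.13 after centring on hepatocyte markers). The diet differences of Elovl2 and Fads1, past the threshold in hepatocytes, are therefore not shown to differ from those in total liver. Without hepatocyte CDAA replicate 1 these 5 genes, Elovl7 included, passed, against 10.2% of all probe sets, and with the spread of each tissue taken apart none of the 8 did, against 1.78%.

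The remaining desaturase and elongase genes of the array were given beside these by lists drawn up with earlier results of these data known. Of 8 such genes, 1 rose and 1 fell in total liver and 1 rose and 2 fell in hepatocytes. Over all probe sets 6.73% rose and 3.54% fell in total liver, and 11% rose and 7.74% fell in hepatocytes. These shares are the background for the list counts here and below, and a few calls in a short list are not read as a change of the list. Elovl3, an elongase of saturated and monounsaturated chains, fell in total liver from 16.30 ± 0.32 to 8.71 ± 1.81, with 1 of 4 CDAA arrays above the intron control percentile, a fitted difference of -7.59 ± 1.02 (adjusted p = 0.000158). In hepatocytes it fell too (-8.43 ± 1.18, adjusted p = 7.89e-05), with 1 of 3 CDAA arrays above that percentile. Degs1, which desaturates dihydroceramide to ceramide, rose in total liver (0.87 ± 0.17, adjusted p = 0.00292) and in hepatocytes (1.66 ± 0.19, adjusted p = 1.3e-05). Fads6, a desaturase-like gene, fell in hepatocytes (-1.87 ± 0.38, adjusted p = 0.0021). Elovl6, which elongates palmitate to stearate ahead of Scd1 and is named here after its values were seen, had -0.83 ± 0.56 in total liver and -1.56 ± 0.64 in hepatocytes without passing.

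The partners of the elongases counted 2 up and 1 down of 12 in total liver, against 6.73% and 3.54% of all probe sets. In hepatocytes they counted 2 up and 4 down, against 11% and 7.74%. Tecr, the last reductase of the elongation cycle, fell in both, with -0.996 ± 0.22 (adjusted p = 0.00853) and -1.69 ± 0.26 (adjusted p = 0.000186). Hsd17b12, the reductase of the second step, fell in hepatocytes (-0.82 ± 0.21, adjusted p = 0.0117). Hacd4, a dehydratase of the cycle, rose in both (1.79 ± 0.50 and 5.97 ± 0.58), from values under the intron control percentile on CSAA; on CDAA it was above on 3 of 3 hepatocyte arrays and on 0 of 4 total liver arrays. Cyb5r1, a cytochrome b5 reductase gene, rose in both (1.92 ± 0.33 and 1.46 ± 0.38) and lay under that percentile on every array.

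Genes that supply palmitate were lower in the median, by -1.06 in total liver and by -2.03 in hepatocytes, against -0.09 and -0.13 over all probe sets. Of them, 3 of 9 fell in total liver and 7 of 9 in hepatocytes, against 3.54% and 7.74% of all probe sets. The list and its medians also hold Mlycd, the malonyl-CoA decarboxylase gene, which acts against that supply. It differed by -0.43 in total liver and -0.51 in hepatocytes without passing. Acly, which makes cytosolic acetyl-CoA, fell in total liver (-2.54 ± 0.43) and in hepatocytes (-3.99 ± 0.50). Acss2, which activates acetate, fell in both (-2.41 ± 0.38 and -2.89 ± 0.43). Thrsp, a lipogenic response gene, fell in total liver (-3.36 ± 0.80), and the mitochondrial citrate carrier gene Slc25a1 fell in hepatocytes (-2.03 ± 0.33). Among the regulators 1 of 12 rose and 2 fell in total liver, against 6.73% and 3.54% of all probe sets. In hepatocytes 1 of these regulators rose and 5 fell, against 11% and 7.74%. Insig1, the endoplasmic reticulum anchor of SREBP and itself an SREBP target, fell in both (-2.98 ± 0.27 and -3.67 ± 0.31). Mlxipl, the glucose-sensing factor ChREBP, fell in both (-1.17 ± 0.29 and -3.25 ± 0.33). Pparg, a nuclear receptor of fat storage, rose in both (1.75 ± 0.35 and 2.58 ± 0.40) from values under the intron control percentile, to above it on 1 of 4 total liver and 2 of 3 hepatocyte arrays. Srebf1, the gene of SREBP-1c, had no named probe set.

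Genes that activate and place fatty acids moved both ways. Of 9 measured acyl-CoA synthetase genes, 2 rose and 1 fell in total liver, against 6.73% and 3.54% of all probe sets. In hepatocytes 1 of these genes rose and 3 fell, against 11% and 7.74%. Slc27a5, the bile acid and very-long-chain acyl-CoA ligase, fell in both (-1.11 ± 0.21 and -2.09 ± 0.24). Acsl4, which prefers arachidonic acid, rose in total liver from 13.05 ± 0.22 to 13.93 ± 0.42 (0.88 ± 0.21, adjusted p = 0.0127). Slc27a1, a fatty acid transport protein gene, rose in both (1.02 ± 0.29 and 1.36 ± 0.33) from under the intron control percentile, to above it on 0 of 4 total liver and 2 of 3 hepatocyte arrays. Slc27a2, of the same family, and Acsl5 fell in hepatocytes (-1.83 ± 0.28 and -1.34 ± 0.31). Of 12 genes of phospholipid acyl exchange, 2 rose in total liver and 4 in hepatocytes, against 6.73% and 11% of all probe sets, and none fell. Tmem86a, a lysoplasmalogenase gene, rose in both (3.22 ± 0.45 and 4.37 ± 0.52), as did Lpcat2, an acyltransferase of inflammatory cells (2.55 ± 0.37 and 5.89 ± 0.43), each from under the intron control percentile on CSAA. In total liver on CDAA Tmem86a was above it on 3 of 4 arrays and Lpcat2 on 0 of 4. Pla2g15, a lysosomal phospholipase, rose in hepatocytes (2.33 ± 0.37).

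Peroxisomal chain shortening is the last stage of docosahexaenoic acid synthesis. Of 12 measured genes listed with it, 3 fell in total liver and 4 in hepatocytes, against 3.54% and 7.74% of all probe sets, and none rose. Both counts include Pecr, an enoyl-CoA reductase gene, which is not itself a shortening enzyme. The transporter gene Abcd3 (-0.82 ± 0.21 and -1.88 ± 0.24) and the enoyl-CoA reductase gene Pecr (-1.05 ± 0.25 and -1.66 ± 0.29) fell in both tissues. Acox3, a peroxisomal acyl-CoA oxidase gene, fell in both too (-0.72 ± 0.21 and -1.08 ± 0.24). In total liver it was above the intron control percentile on only 2 of 4 CSAA arrays and on 0 of 4 CDAA arrays. Scp2, which encodes a peroxisomal thiolase, fell in hepatocytes (-1.67 ± 0.26). Of 11 measured genes that release and oxygenate polyunsaturated fatty acids, 2 rose and 1 fell in total liver, against 6.73% and 3.54% of all probe sets. In hepatocytes 6 of these genes rose and 1 fell, against 11% and 7.74%. Tbxas1, thromboxane synthase, rose in both (2.93 ± 0.34 and 5.65 ± 0.39), and so did Pla2g4a, the phospholipase that frees arachidonic acid (1.68 ± 0.48 and 5.55 ± 0.55). Ptgs2, cyclooxygenase, rose in hepatocytes (3.48 ± 0.35). Ephx2, which hydrolyses epoxides of arachidonic acid, fell in both (-0.79 ± 0.22 and -1.96 ± 0.25). Tbxas1, Pla2g4a and Ptgs2 lay under the intron control percentile on CSAA in each tissue where they rose. In total liver on CDAA Tbxas1 was above it on 1 of 4 arrays and Pla2g4a on 0 of 4. In hepatocytes these rises stand beside the higher markers of Kupffer cells (8 of 8), recruited macrophages (8 of 8), stellate cells (8 of 8) and sinusoidal endothelium (7 of 8) given above. In total liver they stand beside higher markers of recruited macrophages (8 of 8), Kupffer cells (5 of 8), stellate cells (4 of 8) and neutrophils (4 of 6). The part of these cells was not tested in either tissue.

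**Figure D4:**
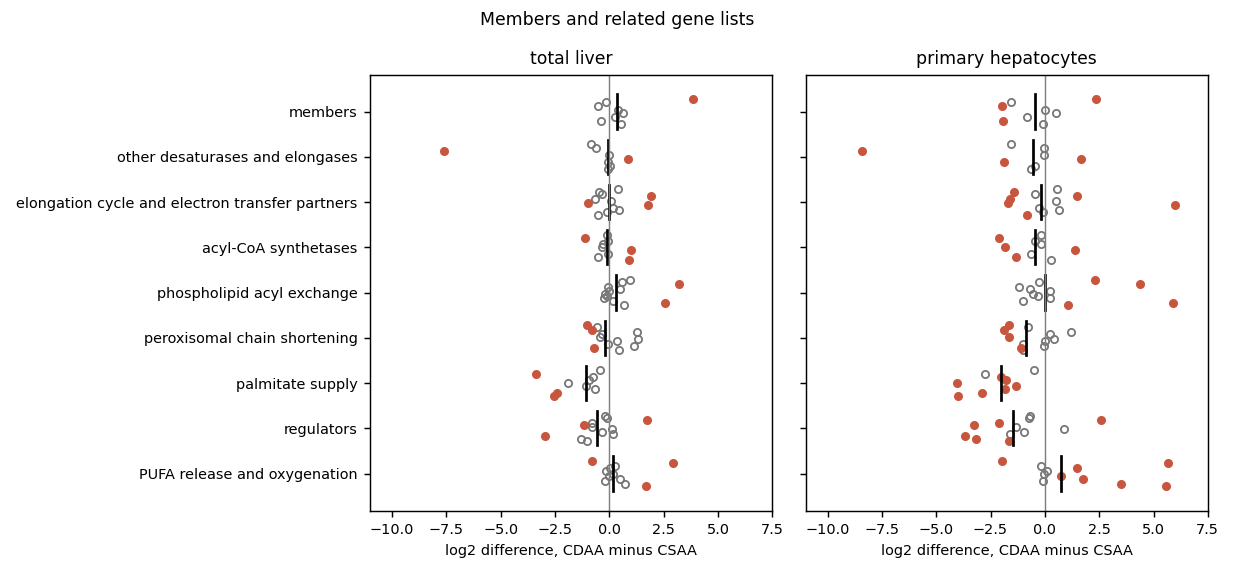
Difference in log2 intensity, CDAA minus CSAA, of the 8 measured genes (members, top) and of each gene of 8 related lists, in total liver (left) and primary hepatocytes (right); filled points passed an adjusted p of 0.05 (limma, 14 arrays), open points did not, and black bars are list medians. Palmitate supply genes have medians of -1.06 and -2.03, while the members scatter around 0 in total liver with Elovl7 apart at 3.83.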

How the data were processed

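RNA of 14 samples was hybridized to Clariom S mouse arrays, 1 per sample; per the labels' protocols, hepatocytes and total liver were extracted with different RNA kits. The deposited values are log2 intensities per probe set, made by the authors with RMA per the submitters' processing notes (version and genome build are not given in the sources used here). From these, limma 3.58.1 in R 4.3.3 fitted a mean per tissue and diet to all 14 arrays (10 residual degrees of freedom), with a two-sided moderated test and Benjamini-Hochberg adjustment over 22206 probe sets, after 6640 control probe sets were left out; no filter on dim probe sets was used. The threshold was an adjusted p of 0.05. Genes were named through the platform annotation (19572 probe sets with 1 symbol, 2634 with none), and a gene with several probe sets by the brightest. Precision is limited by how few arrays there are.

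The members, the related lists and the markers were chosen with earlier results of these data known. Named genes were all members and, per related list and diet comparison, up to 3 past the threshold with the smallest p; the genes closest to Elovl7 were chosen by correlation. The intron control percentile as background is a choice made after the data were seen. Beside the main fit, limma-trend, the tissue alone, a filter on dim probe sets, 2 scalings, array weights, the replicate block, probe set means and leaving out each array were tried. Whether equal replicate numbers mark pairs cannot be settled with 3 or 4 arrays per group. The residuals of same-numbered arrays had r = 0.35, -0.21 and 0.26 (hepatocytes) and between -0.13 and 0.02 (total liver). Scripts were checked on simulated data with known changes, drawn with the same spread per probe set in both tissues. That check does not cover the wider spread of the hepatocyte arrays.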

Additional observations from a re-analysis of the deposited data

Results flagged for a closer look

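In 2 of the 16 sets of 4 total liver arrays looked at (8 genes on 2 diets), 1 array lay far from the other 3; chance gives about 1 in 20. Elovl5 on CDAA read 17.29 on replicate 1 against 16.95 to 16.96 on the others, a gap of 0.945 of the group's range. Fads3 on CSAA read 5.19 on replicate 3 against 5.69 to 5.75, a gap of 0.894 of the range, at values under the intron control percentile. The hepatocyte groups, of 3 arrays each, are too small for this check.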

How the results depend on the processing

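Elovl7 kept its direction and its call in both tissues under all 24 alternatives, some of which could not move its differences. In hepatocytes, 3 of the 8 measured genes passed; the count was 1 with the tissue alone in the fit (8.48% of all probe sets passed, against 18.7% before), 5 after centring on array medians (24.3%), 6 with array weights (30.6%), 5 with the replicate block (4285 probe sets in all, against 4158), and 2 to 6 when 1 array was left out. In total liver the count of 1 became 4 with the tissue alone (20.8% of all probe sets, against 10.3%) and 2 with array weights (22.5%), and lay between 1 and 2 when 1 array was left out. For the difference between tissues the count of 0 became 5 with array weights (12.3%, against 2.57%) and lay between 0 and 5 when 1 array was left out. The highest of each leave-one-out range came without hepatocyte CDAA replicate 1. The cause of these changes was not tested, beyond the spread each fit uses.

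Signs turned only where neither value passed the threshold. Elovl1 in hepatocytes was -0.098 after joint quantile normalization, -0.15 after centring on array medians, and -0.46 to 0.63 when 1 array was left out. Its difference between tissues was -0.24 to 0.85 when 1 array was left out, -0.012 without both hepatocyte arrays numbered 3 and -0.13 after centring on hepatocyte markers, 2 settings added after the data were seen. Elovl5 in total liver was 0.039 after centring on hepatocyte markers. The difference between tissues of Fads3 was -0.18 after joint quantile normalization, -0.18 with array weights, -0.22 to 0.27 when 1 array was left out and -0.40 after centring on hepatocyte markers. Scd1 in hepatocytes was 0.032 after joint quantile normalization, -0.90 to 0.37 when 1 array was left out and 0.61 after centring on hepatocyte markers. With the replicate block, the calls over all probe sets were 2215 in total liver, 4285 in hepatocytes and 615 for the difference between tissues.

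Over all probe sets the calls in total liver rose from 2279 to 4613 with the tissue alone and 4992 with array weights, and were 1510 without total liver CDAA replicate 1. In hepatocytes 4158 became 1883 with the tissue alone, 6806 with array weights and 8374 after centring on hepatocyte markers. For the difference between tissues 570 became 2725 with array weights, 2265 without hepatocyte CDAA replicate 1 and 1290 after centring on hepatocyte markers. That last centring moved the median of all probe sets in hepatocytes from -0.13 to 0.56, and the higher and lower calls from 2439 and 1719 to 7932 and 442. In total liver they went from 1494 and 785 to 2096 and 406.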
